A study of Mus musculus with 3 samples.

Results

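Ccr7, S1pr1, Klf2, Il7r and Foxo1 are 5 genes that direct where naive T cells go and keep them alive, and their mRNA levels were examined in sorted cells from mice bearing kidney tumors. They were chosen by name, with earlier results of these data known. Each gene's level was the sum over its annotated transcripts of the first row that held a value for all libraries. All 5 had a level, among 36835 genes in all. RNA sequencing covered 3 libraries, named M1 and M2 for the types of tumor macrophage they were sorted as, and CD4 for T cells sorted from spleens. The mice were BALB/C and carried Renca cells, a mouse renal cancer line, injected into the kidney. The labels give day 14 after injection in one place and day 16 in another, and one label names the tumor as the source of the CD4 T cells. The labels count 30 tumors and 4 spleens, all from tumor-bearing mice, behind the 3 libraries, and cells were sorted by CD45.2, TCRbeta, CD4, F4/80 and CD11b. There was 1 library per cell subset, so no difference below has a replicate check or a test, and the intervals given cover counting error only. In such bulk RNA, fewer cells of a type and less RNA per cell cannot be told apart.

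The names of the libraries were checked against marker genes before the 5 genes were read. The T-cell markers went with the library labelled M2, where all 12 were highest and summed to 1601 FPKM (fragments for each kilobase of a transcript and each 1000000 mapped), against 5.28 in the library labelled M1 and 2.51 in that labelled CD4. Cd247, the zeta chain of the T cell receptor complex, was listed at 0 in both of the latter, although with all its rows summed it was at 3.14 FPKM in M1 and 2.74 in CD4, against 102 in M2. The 10 macrophage markers summed to 620 FPKM in the library labelled M2, 8100 in M1 and 12597 in CD4, and 9 of them were highest in the library labelled CD4. The names of the libraries labelled M2 and CD4 are at odds with these levels. The labels are kept here as names of libraries, and every direction below rests on them. Depth, estimated from the low values of the table, was 60400000 to 72700000 fragments per library.

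Naive T cells circulate between blood and lymphoid organs, and the 5 genes cover successive steps of that circuit. CCR7 is the chemokine receptor that brings T cells into lymph nodes, and S1PR1 is the receptor for sphingosine-1-phosphate that lets them leave again. IL7R is the alpha chain of the interleukin-7 receptor, through which naive T cells receive a survival signal. FOXO1 and KLF2 are transcription factors of resting T cells. FOXO1 is known to promote transcription of Il7r, Klf2 and Ccr7, and KLF2 that of S1pr1. Outside T cells, CCR7 marks migrating dendritic cells, S1PR1 and KLF2 are prominent in endothelium, and KLF2 is also expressed in monocytes and macrophages.

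The genes were located in build NCBIM37, also called mm9, to which the authors aligned. Ccr7 (ENSMUSG00000037944) lies on the reverse strand of chromosome 11 from 99005510 to 99016391, with 3 exons. S1pr1 (ENSMUSG00000045092) lies on the reverse strand of chromosome 3 from 115413351 to 115417973, and Foxo1 (ENSMUSG00000044167) on the forward strand of the same chromosome from 52072259 to 52154031. Klf2 (ENSMUSG00000055148) lies on the forward strand of chromosome 8 from 74842932 to 74845555, and Il7r (ENSMUSG00000003882) on the reverse strand of chromosome 15 from 9435916 to 9459631, with 8 exons. S1pr1 has 2 annotated transcripts, and each of the others has 1.

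The 250 bases before the annotated start were read for each gene, because these genes are known as targets of FOXO and KLF factors. Ccr7 and Il7r were chosen for display by their like pattern across libraries, and Klf2 as the gene that varied least, in the rows used. The windows of these 3 genes are shown. They lie at chr11:99016392-99016641 (reverse strand), chr15:9459632-9459881 (reverse strand) and chr8:74842682-74842931 (forward strand). Capitals mark the KLF motif CACCC on either strand (GGGTG is its reverse complement), which the Il7r and Klf2 windows do not hold.

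Ccr7: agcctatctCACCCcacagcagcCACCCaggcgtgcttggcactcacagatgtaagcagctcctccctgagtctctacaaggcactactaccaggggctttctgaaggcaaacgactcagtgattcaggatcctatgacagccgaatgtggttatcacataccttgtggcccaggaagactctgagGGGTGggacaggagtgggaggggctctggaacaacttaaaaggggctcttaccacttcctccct

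Il7r: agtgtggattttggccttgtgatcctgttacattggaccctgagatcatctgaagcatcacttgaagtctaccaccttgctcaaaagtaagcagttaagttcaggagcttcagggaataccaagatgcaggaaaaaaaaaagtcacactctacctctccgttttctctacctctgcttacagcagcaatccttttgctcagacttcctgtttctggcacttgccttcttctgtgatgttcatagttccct

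Klf2: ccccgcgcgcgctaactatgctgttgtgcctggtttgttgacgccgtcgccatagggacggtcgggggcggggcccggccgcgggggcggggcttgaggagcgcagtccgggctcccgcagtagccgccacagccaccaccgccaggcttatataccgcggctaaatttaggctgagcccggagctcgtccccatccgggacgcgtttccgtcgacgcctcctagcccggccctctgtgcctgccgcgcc

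The Ccr7 window held 3 matches to CACCC, starting 241, 227 and 64 bases before the gene, and the other windows held 0. Among the windows of 22367 protein-coding genes, 52.4% held at least 1 such match. The FOXO motif GTAAACA, searched on both strands, had 0 matches in the windows of all 5 genes, and 2.70% of all windows held one. These counts say only which letters stand in this window. The windows differed more in composition. The Klf2 window was 70.8% G and C with 32 CG dinucleotides, while that of Il7r was 44.0% with 1 and that of Ccr7 54.8% with 3. Over all windows the medians were 54.4% and 9. The Foxo1 window held 20 CG dinucleotides and that of S1pr1 held 7.

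Levels of all 5 genes were highest in the library labelled M2. Their range there ran from 22.5 FPKM for Klf2 to 122 for Ccr7, with a median of 104. The range was 3.32 to 8.15 FPKM in the library labelled M1 and 0.464 to 17.9 in that labelled CD4. In the rows used, the genes therefore lay closest together in M1, where the highest was 2.46 times the lowest, and furthest apart in CD4, where it was 38.5 times. Klf2 had a second complete row, at 68.6 FPKM in M2 and 16.1 in M1. With that row Klf2 was the highest of the 5 genes in M1 and not the lowest in M2. Which library held the genes closest together thus depends on the row. Summed over the 5 genes, the level was 403 FPKM in M2, 29.0 in M1 and 26.8 in CD4, so that the latter libraries were alike in the sum and not in the genes that made it up.

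**Figure D1:**
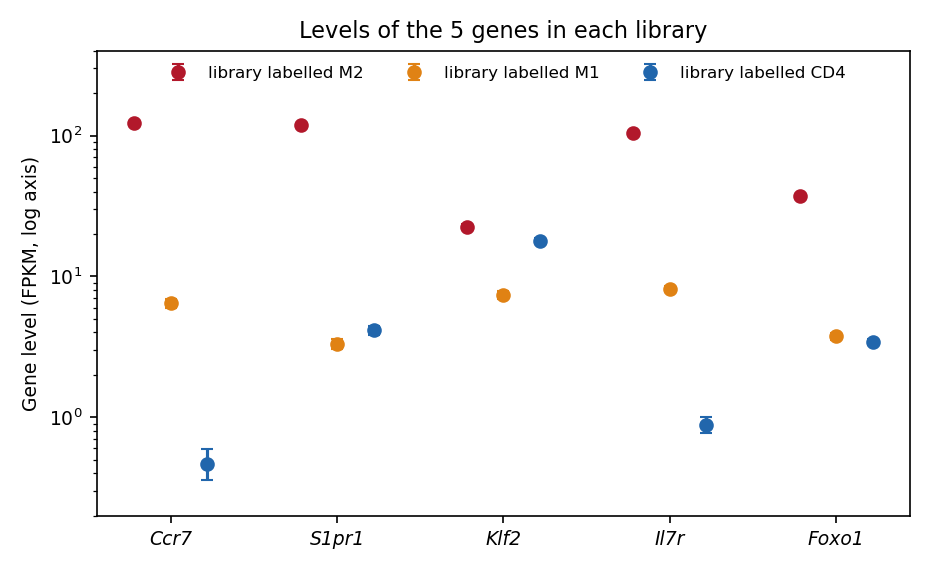
Levels of Ccr7, S1pr1, Klf2, Il7r and Foxo1 in FPKM on a log axis, with 1 point for each library and bars for the 95% counting interval, which is smaller than most points. The point of the library labelled M2 is the highest for each gene, and Klf2 at 17.9 FPKM in the library labelled CD4 comes nearest to it.

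Ccr7, the homing receptor, was at 122 FPKM in the library labelled M2, 6.44 in M1 and 0.464 in CD4. The M2 level was above 98.4% of the genes detected in that library. It stood on about 14559 estimated fragments, while that in CD4 stood on about 67, with a counting interval of 0.361 to 0.592 FPKM. All 3 levels were well separated, and the span from M2 to CD4, 262 times, was the widest of the 5 genes in the rows used. With all rows summed that of S1pr1, 899 times, was wider.

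Il7r, the survival receptor, took the same order. Its level was 104 FPKM in M2, 8.15 in M1 and 0.882 in CD4, with counting intervals of 102 to 105, 7.76 to 8.56 and 0.767 to 1.01. The M2 level was 12.7 times that of M1 and 118 times that of CD4. With all rows summed, Il7r was at 16.9 FPKM in M1 and the M2 level was 7.26 times that. In the rows used, Il7r was the gene closest to Ccr7 across the 3 libraries among 22144 protein-coding genes. Ccr7 was likewise the one closest to Il7r, with a distance of 0.523 on the log2(FPKM + 1) scale. Distances were not computed with all rows summed, where Ccr7 stayed at 6.44 FPKM in M1. Next to Ccr7 came Map4k2 and Cd2, an adhesion receptor of T cells, with distances of 0.772 and 0.794. Next to Il7r came Traf3ip3 and Dusp2, a nuclear phosphatase of MAP kinases, at 0.742 and 0.925.

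S1pr1, the exit receptor, was at 118 FPKM in M2, 3.32 in M1 and 4.14 in CD4. The 2 low levels had counting intervals of 3.04 to 3.61 and 3.85 to 4.44 FPKM, which did not overlap, although the ratio between them was only 1.25. Its closest genes were H2-Q7, a class I MHC gene, Dgka, a diacylglycerol kinase, and Slamf6, a receptor of lymphocytes, at distances of 0.747, 0.931 and 1.09. H2-Q7 belongs to a family of near-identical copies, and its level is uncertain for that reason.

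In the rows used, the S1pr1 level was split between its annotated transcripts. The longer ENSMUST00000055676, of 3029 bases, was at 61.4 FPKM in M2, 1.92 in M1 and 2.16 in CD4. The shorter ENSMUST00000170875, of 2070 bases, was at 56.2 FPKM in M2, and it made up 47.8% of the gene's level there, 42.3% in M1 and 47.7% in CD4. All its 2070 bases also lie in the longer transcript, and the annotation leaves out 2 bases of the longer one between its exons. Those bases are shown in capitals within 30 bases on the reverse strand at chr3:115414868-115414897.

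S1pr1 around the omitted bases: tcatccggatcgtaTCttgttgcaaatgcc

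The shorter transcript thus has 0 bases of its own against 959 for the longer, and the split between them rests on the model of Cufflinks. The longer transcript also had a row of 4733 FPKM with a value in M2 alone, which was not used. With all rows summed S1pr1 was at 4851 FPKM in M2, so both its level in M2 and the split there depend on the rows read. With the higher transcript alone, the log2 ratio of M2 over CD4 was 4.30 in place of 4.53.

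Foxo1, the transcription factor upstream of several of these genes, was at 37.3 FPKM in M2, 3.75 in M1 and 3.41 in CD4. The counting intervals of the lower levels, 3.54 to 3.96 and 3.24 to 3.60 FPKM, overlapped, so that no order between M1 and CD4 can be given. Its level in these libraries stood near the middle of the genes detected, above 53.6% in M1 and 52.4% in CD4. Its closest genes were Fam189b, Tmem71 and Tnfrsf14, a receptor of the TNF receptor family, at distances of 0.243, 0.395 and 0.400.

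Klf2 differed from the others in its level in the library labelled CD4. It was at 22.5 FPKM in M2, 7.39 in M1 and 17.9 in CD4, so that the CD4 level was 79.4% of that in M2. For the other 4 genes this share was 0.381% for Ccr7, 0.851% for Il7r, 3.52% for S1pr1 and 9.15% for Foxo1. Among its closest genes were Mdm2 and Mepce, at distances of 0.140 and 0.246, and 0.140 was the shortest distance found for a member. Mdm2 is an E3 ubiquitin ligase of p53.

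This account of Klf2 depends on which of its rows is read. The single annotated Klf2 transcript had 2 rows with a value in all libraries. The first, used here, held the values above. The second held 68.6 FPKM in M2, 16.1 in M1 and 27.4 in CD4. M2 was highest and M1 lowest in both, but the log2 ratio of (FPKM + 1) of M2 over CD4 was 0.32 in the first and 1.29 in the second, and that of CD4 over M1 was 1.17 and 0.74. With both rows summed these ratios were 0.99 and 0.92. The table does not say how the rows differ.

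To set the genes beside all others, a gene was called where the log2 ratio of (FPKM + 1) between libraries was at least 1 in size, which is a factor of 2 on that scale. A gene was counted if either library of a pair reached 1 FPKM for it. The shares over all genes are given for scale only, because the 5 genes were chosen with earlier results of these data known. Adding 1 FPKM shrinks the ratios of low genes, so that for Ccr7 and Il7r in the library labelled CD4 the log2 ratios understate the ratios of FPKM.

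Between the libraries labelled M2 and CD4, 4 of the 5 genes were called higher in M2 and 0 lower, where 17.3% of the 12438 genes counted were called higher and 15.3% lower. The log2 ratios were 6.39 for Ccr7, 5.80 for Il7r, 4.53 for S1pr1 and 3.12 for Foxo1, and Klf2 at 0.32 was not called. The ratio of Ccr7 was above that of 99.8% of the genes counted and that of Foxo1 above 97.1%, while Klf2 lay above 59.2%. The median ratio of the members was 4.53 and that of all genes counted 0.12.

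Against the library labelled M1, all 5 genes were called higher in M2, where 17.0% of 12443 genes were called higher and 14.5% lower. S1pr1 had the largest log2 ratio, 4.78, followed by Ccr7 with 4.05, Il7r with 3.52, Foxo1 with 3.01 and Klf2 with 1.49. The median over the members was 3.52 and over all genes counted 0.10. Both comparisons share the library labelled M2, so that they are not independent of each other.

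Between the libraries labelled CD4 and M1, the 5 genes did not go one way. Ccr7 and Il7r were called lower in CD4, with log2 ratios of -2.35 and -2.28, where 7.24% of 11587 genes were called lower. Klf2 was called higher in CD4 at 1.17, where 6.98% of genes were called higher, and this call rests on its first row. S1pr1 at 0.25 and Foxo1 at -0.11 were not called. Levels in M1 were 13.9 times those in CD4 for Ccr7 and 9.24 times for Il7r.

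**Figure D2:**
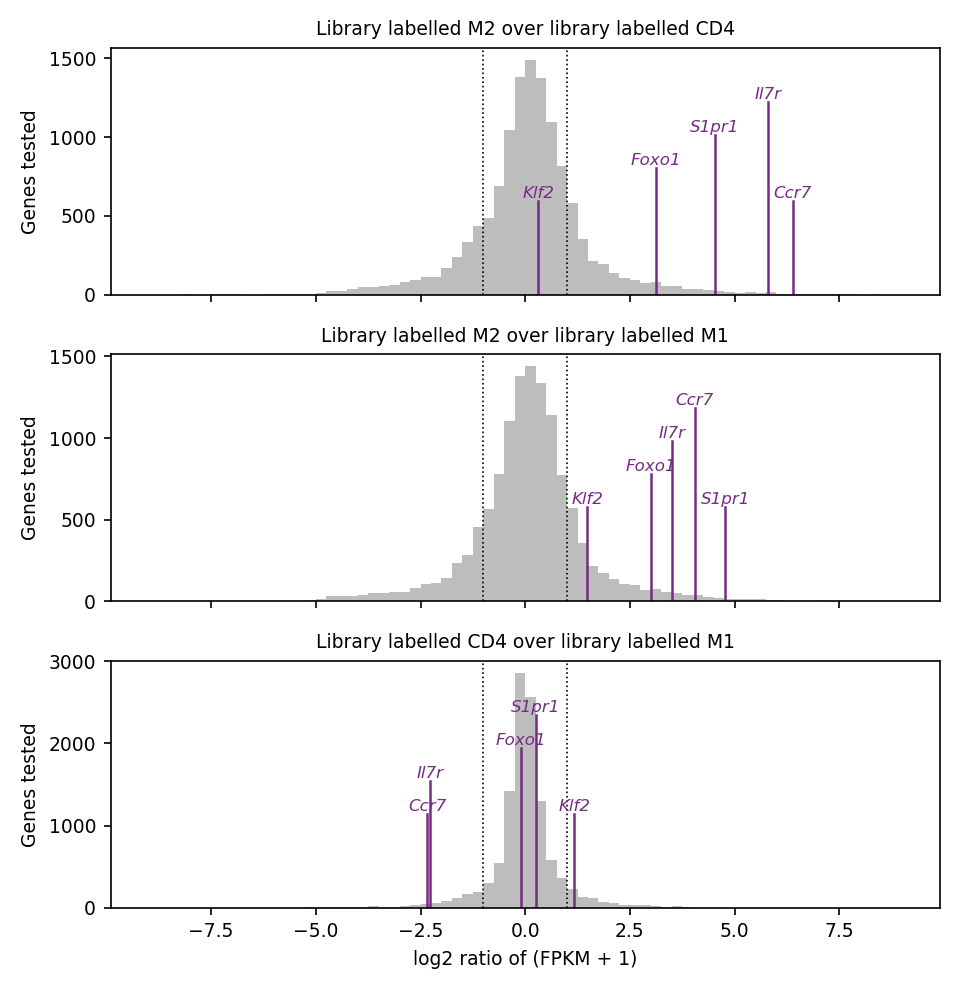
Number of genes counted (grey, bins of log2 ratio) in each comparison, with vertical lines for Ccr7, S1pr1, Klf2, Il7r and Foxo1 and dotted lines at the calling rule of 1 in size. In the upper panels Klf2, at 0.32 and 1.49, is the member nearest to the bulk of genes, and in the lowest panel Ccr7 and Il7r stand to the left at -2.35 and -2.28.

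Markers of other cells moved with some of these differences. In the library labelled M1, Ccr7 and Il7r stood beside some markers of dendritic cells. Of the 8 dendritic cell markers, 5 were highest in M1, and the list summed to 175 FPKM there, 35.7 in CD4 and 16.2 in M2. Itgax alone, at 124 FPKM in M1 and 29.5 in CD4, made up most of the sums of those libraries. Ccl22, a chemokine of mature dendritic cells, was at 18.6 FPKM in M1 and 0.952 in CD4. Cd209a was at 23.7 and 0.653 FPKM, and Fscn1, an actin-bundling protein of mature dendritic cells, at 6.64 and 2.14. Other markers of the list did not share this difference. Zbtb46 was at 1.42 FPKM in M1 and 1.21 in CD4 and was not called. Flt3 was at 0.314 and 0.227 FPKM and was highest in M2. Xcr1 and Clec9a, markers of the cross-presenting subset, were under 1 FPKM in both M1 and CD4. The part of such cells in the levels of Ccr7 and Il7r was not tested.

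T-cell markers did not share this difference between M1 and CD4, with the exception of Cd2. Of the 12, 11 were under 1 FPKM in both libraries in the rows used, and Cd3e was at 0.131 FPKM in M1 and 0.141 in CD4. Cd2 was at 3.39 and 0.320 FPKM. In the rows used, as a share of its level in M2, the median T-cell marker was at 0.137% in M1 and 0.116% in CD4. The highest values were 3.12% for Cd2 in M1 and 1.69% for Cd28 in CD4. Of the 5 genes in M1, S1pr1 at 2.82% lay below Cd2 and above the other 11 T-cell markers, which reached 0.373%. The remaining genes, from 5.28% for Ccr7 to 32.8% for Klf2, lay above all 12. In CD4, Ccr7 and Il7r at 0.381% and 0.851% lay above 11 of the 12 T-cell markers and below Cd28. There S1pr1, Foxo1 and Klf2 lay above all of them. These places depend on the rows read. With all rows summed, S1pr1 was at 4851 FPKM in M2 and 3.32 in M1. Cd247 was then at 102 FPKM in M2, 3.14 in M1 and 2.74 in CD4. In that setting Cd247 had a larger share than S1pr1 in M1, and than Ccr7 and Il7r in CD4.

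**Figure D3:**
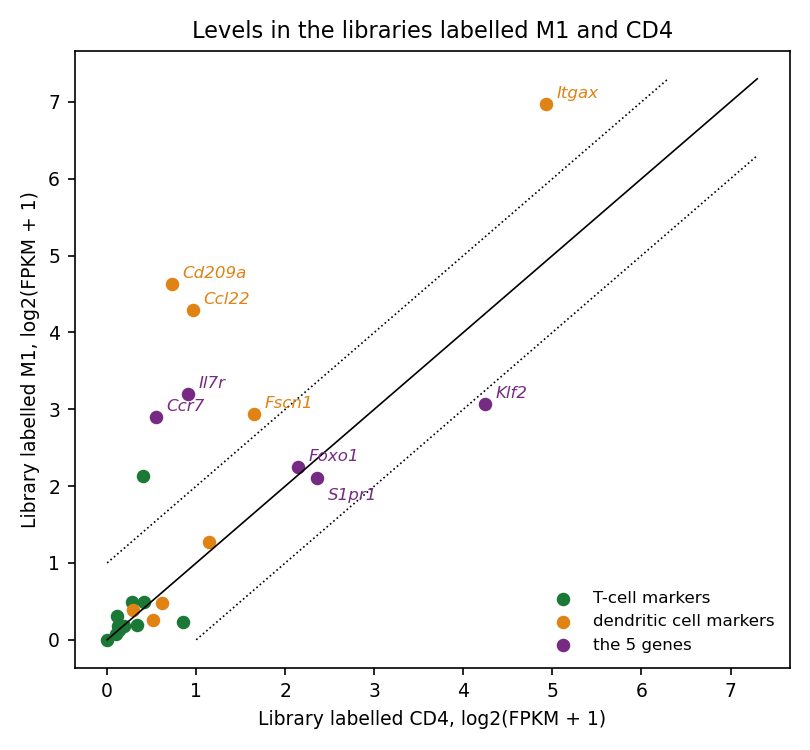
Levels on the log2(FPKM + 1) scale in the library labelled M1 (vertical) against that labelled CD4 (horizontal), for the 5 genes, 12 T-cell markers and 8 dendritic cell markers, with a solid line at equal levels and dotted lines at a difference of 1. Ccr7 and Il7r lie above the upper dotted line together with Cd209a, Ccl22, Itgax and Fscn1, Klf2 lies below the lower one, and all T-cell markers but Cd2 lie near the origin.

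Other cells that use these genes gave mixed values. B cells express CCR7 as well, and 4 of the 6 B-cell markers were highest in the library labelled M2, among them Cd79a at 18.2 FPKM and Ms4a1 at 13.5, while Cd79b and Pax5 were listed at 0 there in the rows used (Pax5 was at 6.49 FPKM with all rows summed). The list summed to 52.9 FPKM in M2, 0.422 in M1 and 0.501 in CD4. Of the 7 endothelial markers, only Pecam1, which leukocytes also express, was highest in M2, and the list summed to 36.9 FPKM in M2, 6.81 in M1 and 6.83 in CD4. Cdh5, the endothelial cadherin, was at 0.533, 0.191 and 0.617 FPKM, respectively. Markers of CD8 T and NK cells summed to 12.7 FPKM in M2, 3.43 in M1 and 0.243 in CD4. Of these, 3 were highest in M2, while Klrb1c, at 3.18 FPKM in M1, was highest there and made up most of that sum. Epithelial markers summed to 179, 68.8 and 85.1 FPKM, with 3 of 5 highest in M2, Epcam in M1 and Lrp2 in CD4. Those of fibroblasts summed to 9.93, 6.86 and 31.5. The part of these cells in the levels of the 5 genes was not tested.

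Other genes of lymph node entry followed the pattern of Ccr7 in part. Itgb7, an integrin chain of gut homing, was at 154 FPKM in M2, 14.8 in M1 and 0.730 in CD4. Like Ccr7 and Il7r, it was called lower in CD4 than in M1, with a log2 ratio of -3.19. Itga4, the alpha chain that pairs with it, was at 31.9, 6.90 and 3.02 FPKM. Of 7 genes listed, 5 reached 1 FPKM, and 4 of these were called higher in M2 than in CD4 and 3 higher in M2 than in M1, with 0 lower. Among all genes counted, 17.3% were called higher in M2 than in CD4 and 17.0% higher than in M1. Cxcr4, the receptor for CXCL12, was at 69.9, 35.1 and 39.1 FPKM and was not called, but with all its rows summed the log2 ratio of M2 over CD4 went from 0.82 to 2.80 and that over M1 from 0.97 to 2.95. Itgal over M1 went from 0.65 to 1.22, so that 5 genes of the list were then called higher in M2 than in M1. The CCR7 ligands Ccl19 and Ccl21a were at or below 0.0342 FPKM in every library.

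The other sphingosine-1-phosphate genes did not follow S1pr1 as a group. Against CD4, 2 of the 7 counted were called higher in M2 and 3 lower, with a median log2 ratio of -0.90. The shares over all genes counted were 17.3% and 15.3%, with a median of 0.12. Among the receptors, S1pr4, which is expressed mainly in hematopoietic cells, was at 15.6 FPKM in M2, listed at 0 in M1 and at 0.163 in CD4. With all its rows summed it was at 50.0 FPKM in M2 and 0.466 in M1. S1pr2 went the other way, at 5.46, 14.7 and 18.0 FPKM, and S1pr3 stayed at or below 0.450 in all libraries. Sgpl1, the lyase that degrades sphingosine-1-phosphate, was at 25.2, 65.7 and 98.1 FPKM and was called lower in M2 than in both others. Sphk2, a kinase that makes the lipid, was at 11.7, 15.4 and 24.9 FPKM, and its call against CD4, at -1.03, was lost with its highest transcript alone, at -0.11. Cd69, an activation marker that binds S1PR1 and removes it from the surface, was at 29.6, 5.91 and 2.57 FPKM and so was highest in the same library as S1pr1.

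Of the interleukin-7 pathway, 7 of the 10 genes counted were called higher in M2 than in CD4 and 1 lower, with a median log2 ratio of 1.28. Against M1 the counts were 6 and 2, with a median of 1.23. The shares over all genes counted were 17.3% higher and 15.3% lower against CD4, and 17.0% and 14.5% against M1. Il2rg, the common gamma chain that pairs with IL7R, was at 169 FPKM in M2, 55.8 in M1 and 41.9 in CD4. The kinases of the paired receptor, Jak1 and Jak3, were at 146, 60.5 and 54.5 FPKM and at 43.5, 14.5 and 20.7 FPKM. The call of Jak3 against CD4 was marginal at 1.04 and was lost after scaling by the median ratio, at 0.98. Crlf2, which pairs with IL7R in the receptor for TSLP, was lower in M2, at 7.39 FPKM against 21.6 in M1 and 18.7 in CD4. With all its rows summed it was not called, at -0.74 against CD4 and -0.99 against M1. The ligands Il7 and Tslp were at or below 0.173 FPKM in all libraries, although Tslp reached 1.72 in CD4 with all its rows summed.

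Bcl2 and Mcl1 encode survival proteins downstream of this receptor. Bcl2 was at 30.7 FPKM in M2, 2.59 in M1 and 2.03 in CD4, but the second complete row of its transcript held 0, 1.63 and 1.44 FPKM, so that its direction depends on the row. Mcl1 was at 78.1 FPKM in M2, 186 in M1 and 138 in CD4 and was called lower in M2 than in M1, at -1.24, though not with all its rows summed, at -0.33, and it was not called against CD4, at -0.81. Of the feedback inhibitors, Socs1 was at 15.3, 6.14 and 1.99 FPKM, and Cish at 11.8, 12.4 and 2.25, so that Cish, unlike Il7r, was not called between M2 and M1.

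Relatives of the 2 transcription factors were read beside them. Against CD4, 0 of the 7 KLF and FOXO genes counted were called in either direction, with a median log2 ratio of -0.20, where Klf2 was at 0.32 and Foxo1 at 3.12. Summing all rows gave 1 higher and 1 lower. Against M1, 2 were called higher in M2 and 1 lower, with a median of 0.04. Among all genes counted, 17.0% were called higher in M2 than in M1 and 14.5% lower, with a median of 0.10. In the list, Klf3 at 1.44 and Foxo4 at 1.05 were the higher ones, beside Klf2 at 1.49 and Foxo1 at 3.01, and Klf10 at -1.45 was the lower. With all rows summed, Klf3 at 0.71 and Foxo4 at 0.77 were not called. Foxo3 was at 5.41 FPKM in M2, 5.24 in M1 and 6.38 in CD4, which placed it above Foxo1 in both M1 and CD4. Foxo4 was at 11.6, 5.13 and 5.76 FPKM. Klf6 was the highest KLF gene of the list in every library, at 42.0, 75.5 and 63.9 FPKM. Klf13 was not called against CD4, at -0.04, but was with all rows summed, at 1.46. Klf4 was listed at 0 in all libraries and at 17.5 FPKM in CD4 with all its rows summed.

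Transcription factors of naive T cells gave larger ratios than the 5 genes in several cases. Tcf7, which encodes TCF1, was at 250 FPKM in M2, 0.344 in M1 and 0.0939 in CD4, and Lef1, its relative, had log2 ratios of M2 over CD4 and over M1 of 6.49 and 6.46. In all, 6 of the 8 listed were called higher in M2 than in CD4 and the same number higher than in M1, with 0 lower and median log2 ratios of 4.83 and 5.04. The shares called higher over all genes counted were 17.3% and 17.0%. Satb1 was at 69.3, 0.547 and 1.06 FPKM. Slfn2, a gene of T-cell quiescence that macrophages also express, was at 119, 119 and 93.6 FPKM, and Tob1 at 9.38, 8.16 and 7.83 FPKM, and neither was called. With all its rows summed, Tob1 was called higher in M2, at 1.31 over CD4 and 1.33 over M1. In that setting 7 genes of the list were called higher in M2 than in CD4, and 7 higher than in M1.

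Genes of effector and activated T cells were also mostly highest in M2, with a lower median level there than the naive genes. Of 11 listed, 10 had a level, and 7 of these were called higher in M2 than in CD4 and 1 lower, where the shares over all genes were 17.3% and 15.3%. Cxcr3 was at 19.1 FPKM in M2, Il2ra at 10.2, Pdcd1 at 10.1, Tbx21 at 4.21 and Ifng at 2.52. The median of the list in M2 was 6.70 FPKM, against 82.1 for the naive transcription factors and 104 for the 5 genes. The lists overlapped, with Cd44 of the effector list at 30.2 FPKM in M2 and Bach2 of the naive factors at 11.9. What the medians say of the state of the T cells was not tested.

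**Figure D4:**
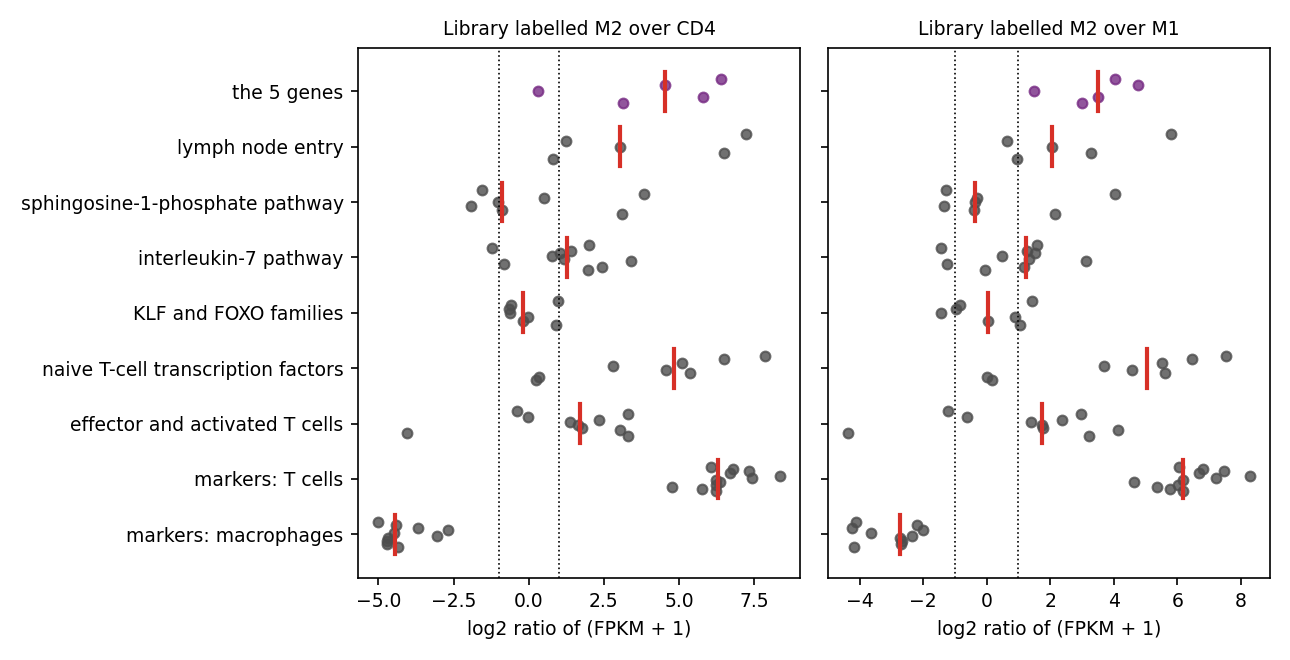
The log2 ratio of (FPKM + 1) of the library labelled M2 over CD4 (left) and over M1 (right) for each gene counted, with 1 row for each list, a red bar at its median and dotted lines at 1 in size. The 5 genes have medians of 4.53 and 3.52, and the naive T-cell transcription factors 4.83 and 5.04, while the KLF and FOXO families have medians of -0.20 and 0.04.

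The 5 genes were then read under each other way of processing the table. Ccr7, S1pr1, Il7r and Foxo1 were called higher in M2 than in both other libraries in all 10 settings, the reported one included. Not all settings are separate checks. For these genes, protein-coding transcripts only, no filter, all complete rows summed and the last complete row all repeated the reported values. With the highest transcript alone, only S1pr1 among them differed, and Foxo1 was also unchanged with all rows summed. The log2 ratios of M2 over CD4 ranged from 2.53 to 7.76 for Ccr7, 2.32 to 9.57 for S1pr1, 2.32 to 6.72 for Il7r and 1.16 to 3.41 for Foxo1. The highest value of S1pr1 came from summing all rows, which adds a row of 4733 FPKM that has a value in the library labelled M2 alone. Klf2 kept its reported call in 8 settings for M2 over CD4, 9 for M2 over M1 and 7 for CD4 over M1.

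**Figure D5:**
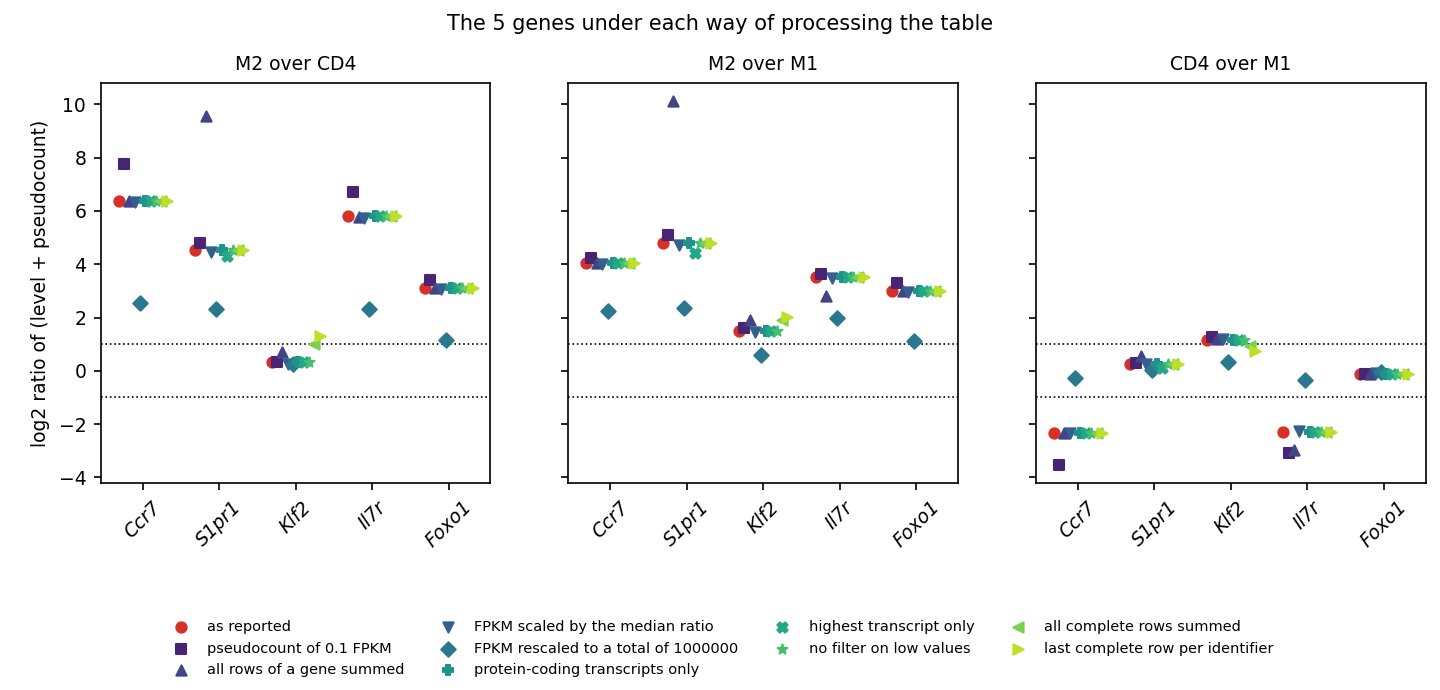
The log2 ratio of each gene in each comparison under 10 settings, with red circles for the values as reported, other symbols for the alternatives and dotted lines at 1 in size. Klf2 is the gene whose points lie on both sides of 1 in all panels, and the triangles of S1pr1 near 10 come from summing all rows.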

How the data were processed

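RNA of the sorted M1, M2 and CD4 cells was sequenced from paired ends. After quality trimming, the authors aligned reads to mm9 by TopHat with Bowtie, estimated transcripts by Cufflinks under Ensembl guidance, and deposited their FPKM for each transcript as 1 table. How its rows were joined across libraries is not given in the sources used here, and the submitters' processing notes also name Cuffdiff. Each column was given to the sample whose label matches its heading.

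Of 92519 identifiers in 135070 rows, 97.6% were found in the GENCODE annotation of NCBIM37. For each identifier the first row with values in all 3 columns was kept, and rows were summed per gene. Ratios were log2 of (FPKM + 1), and genes reaching 1 FPKM in either library of a pair were counted. Depth was estimated from the step that 1 fragment makes in FPKM times length, read as the commonest value below -4.8 (log2) in 2199 coding genes with a single transcript of 2500 to 8000 bases. Counting intervals are exact Poisson intervals at 95% on fragments estimated from level, length and depth. Likeness was the Euclidean distance of log2(FPKM + 1) over the 3 libraries, and the 3 closest protein-coding genes were named for each member, beside the members and the listed genes. Some genes of this rule and of the lists are not reported here by name, though counts, sums and medians include them. Windows of 250 bases were read from the NCBIM37 genome. The members and lists were chosen with earlier results of these data known. Alternatives changed the pseudocount, rows, transcripts, scaling and filter. The calculations were tested on simulated data. Python 3.11.15 was used with pandas 2.3.3, numpy 2.4.6 and scipy 1.17.1, and plots were drawn with matplotlib 3.10.9.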

Additional observations from a re-analysis of the deposited data

Results flagged for a closer look

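Rows of the 5 genes that the gene levels do not use held 15 values above the level of 3 fragments, which was 0.0129 to 0.0269 FPKM for the annotated transcript lengths. The true length behind such a row is not given. For S1pr1, a row with a value in the library labelled M2 alone held 4733 FPKM, and a row in CD4 alone held 1.26. For Klf2, the second complete row held 68.6 FPKM in M2, 16.1 in M1 and 27.4 in CD4, and rows of a single library held 0.327 in M1, 0.512 in M2, and 9.43 and 0.510 in CD4. Il7r had rows of a single library at 2.39, 3.47 and 2.91 FPKM in M1, 19.2 in M2 and 0.392 in CD4, and Ccr7 had one at 0.189 in M2. The cause of these rows was not tested.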

How the results depend on the processing

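No paired analysis was possible because there was a single library for every group, so none could be left out either. The number of members called was 4 for M2 against CD4, 5 for M2 against M1 and 3 for CD4 against M1. Of 27 such counts under alternatives, 26 were within 1.5 times of these, though several alternatives leave the values of Ccr7, S1pr1, Il7r and Foxo1 as reported. The exception was FPKM rescaled to a total of 1000000, where 0 members were called for CD4 against M1. There the numbers over all genes also fell, to 326 higher and 306 lower for M2 against CD4, 250 and 294 for M2 against M1, and 72 and 110 for CD4 against M1. Totals of 25111563 to 30149504 FPKM shrink each level by that construction while 1 is still added. The other 48 counts over all genes stayed within 1.5 times. Use of the last complete row, like the sum of complete rows, was an alternative added once the data had been seen. With the last row, the log2 ratio of Bcl2 turned to -1.29 against CD4 and -1.39 against M1, since that row is at 0 in M2. Of 3048 ratios of the other listed genes, these 2 reversed, and of 135 ratios of the members 0 did. Levels resting on few fragments, such as Ccr7 in the library labelled CD4, are limited by depth.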
